A study of Mus musculus with 20 samples.

Results

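The genes described here are Srf and 9 genes of the actin cytoskeleton and the contractile apparatus, namely Acta2, Actb, Actg1, Tagln, Tagln2, Cnn2, Myl9, Vcl and Tpm1. They were chosen by symbol, with earlier results of these data known, and make up 10 of the 21937 genes in the deposited RNA table. RNA was sequenced from mouse neurons at day 10 of differentiation in culture (strain label 159.2). NMDA, which activates glutamate receptors of the class named after it, was given at 200 µM for 6 h to 1 group, and the control group received only DMSO, the solvent, for 6 h. Each group had 2 libraries, the cultures carried no labelled genetic change, and the cells were washed in a balanced salt solution before and after treatment. The labels do not say whether a group's 2 libraries were made from separate cultures, and p-values therefore measure only how far these libraries spread, which may be technical. The deposited values are normalised read counts, that is, reads per gene divided by 1 factor per library, and between 15008112 and 20149813 reads lay behind each library. All 10 genes passed the filter of a mean of 10 normalised read counts, and the fewest reads behind any value were 35, for Myl9 in control replicate 2.

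Srf encodes serum response factor, a transcription factor that binds a short DNA element called the CArG box, in which A and T bases stand between CC and GG. It works with either of a pair of cofactor families. The MRTF proteins are held in the cytoplasm by unpolymerised actin and enter the nucleus when actin filaments form, where they drive cytoskeletal genes, whereas the ternary complex factors of the Elk family respond to MAP kinase signalling and drive immediate early genes. In neurons, serum response factor is known for its part in activity-dependent transcription and in neurite growth, and in smooth muscle and fibroblasts for the contractile programme.

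The promoter windows are shown first because they are where a CArG box can be seen in letters. RefSeq windows of the GRCm38.p6 assembly, from 250 bases before to 50 bases after an annotated start, matched 8 of the 10 genes by symbol, all but Actb and Tagln. A CArG box of 10 bases, which reads as the same pattern on either strand, was found in the windows of 5 of these 8 genes, namely Srf, Actg1, Cnn2, Myl9 and Vcl. Of all 32851 windows of this length, 1.63% held one. A gene can have several windows, so this share by window is not a share by gene. The 10 genes were put together as serum response factor and actin contractile targets. Setting 5 of 8 beside 1.63% is therefore not an independent comparison. The Srf window held 2 boxes, 82 and 62 bases before the start. It is given whole, and the other boxes with up to 25 bases on each side, with the box in capitals.
Srf, chr17:46556113-46556412, minus strand: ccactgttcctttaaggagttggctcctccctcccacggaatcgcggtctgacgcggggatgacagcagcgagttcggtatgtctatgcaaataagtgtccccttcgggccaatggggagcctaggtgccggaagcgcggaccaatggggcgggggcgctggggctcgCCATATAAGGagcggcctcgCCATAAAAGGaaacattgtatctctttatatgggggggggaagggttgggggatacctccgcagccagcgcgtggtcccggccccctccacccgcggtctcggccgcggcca
Actg1, chr11:120348551-120348610, minus strand: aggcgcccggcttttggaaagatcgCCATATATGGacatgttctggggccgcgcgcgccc
Cnn2, chr10:79988519-79988578, plus strand: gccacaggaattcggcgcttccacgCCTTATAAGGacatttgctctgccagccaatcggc
Myl9, chr2:156775278-156775337, plus strand: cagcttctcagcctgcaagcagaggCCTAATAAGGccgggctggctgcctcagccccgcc
Vcl, chr14:20929148-20929205, plus strand: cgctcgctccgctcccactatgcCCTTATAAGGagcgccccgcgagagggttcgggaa
The boxes began 90 bases before the start in Actg1, 56 in Cnn2, 161 in Myl9 and 227 in Vcl. Cnn2 and Vcl had the same 10 letters, CCTTATAAGG. No match was found in the windows of Acta2, Tagln2 and Tpm1, which says only that these letters are not in these 300 bases. Here and below, only exact matches were counted as boxes. Sequences that differ from the pattern by a base, and bases outside the window, were not searched. A match is a description of the letters and not of binding.

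**Figure D1:**
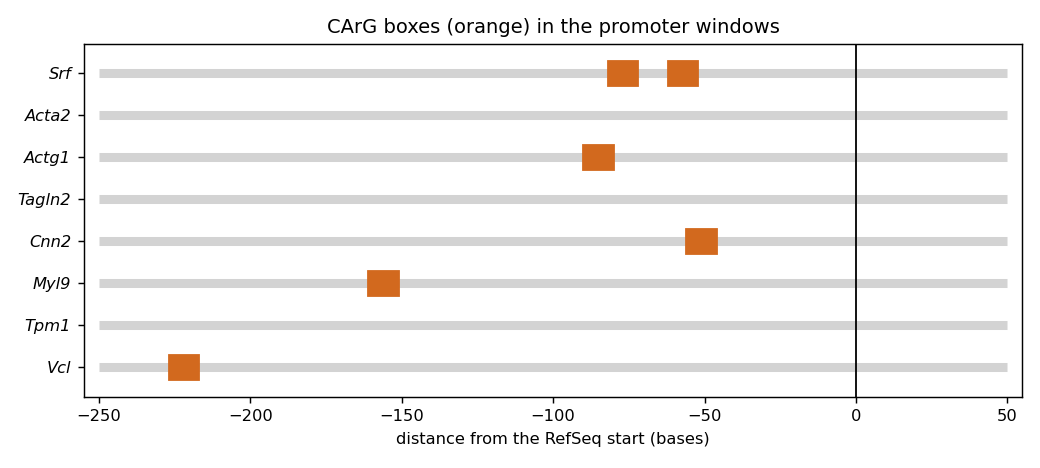
Positions of CArG boxes (orange) in the promoter windows of 8 genes, as distance in bases from the RefSeq start (black line); the grey bar is the window searched. The 2 Srf boxes and those of Cnn2 and Actg1 lay within 90 bases of the start, and those of Myl9 and Vcl farther upstream.

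The RNA design asks how transcripts of neurons treated with NMDA differ from those of neurons given the solvent. All 10 genes had higher normalised read counts in both NMDA libraries than in both controls, and 9 rose at an adjusted p under 0.05, while Actg1 did not pass. Among all 13888 genes tested, both NMDA libraries lay above both controls in 36.6%, and 20.5% rose. Because the 10 genes and the lists below were chosen with earlier results of these data known, their counts beside these shares describe them. They are not a test. Tagln2 and Myl9 were the 2 genes with a log2 change of at least 1 (a doubling), and the actins Actb and Actg1, Tpm1 and Vcl had changes under 0.5. The median log2 change of the 10 genes was 0.75, beside -0.01 over all genes tested. Changes are differences of log2(normalised read count + 1), tested with limma with Benjamini-Hochberg adjustment over all genes tested. In bulk RNA, a change in the share of cells that express a gene and a change in its RNA per cell cannot be told apart.

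Srf itself stood at 347 and 350 normalised read counts in the controls and at 572 and 584 after NMDA. The libraries of each group lay close together and the groups were far apart. The mean went from 349 ± 1.58 to 578 ± 8.40 (SD, n = 2 each). The log2 change was 0.73 ± 0.10 (SE, by limma; adjusted p = 0.00125). Leaving out any 1 library kept the change between 0.71 and 0.74, with a limma adjusted p of at most 0.0257.

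**Figure D2:**
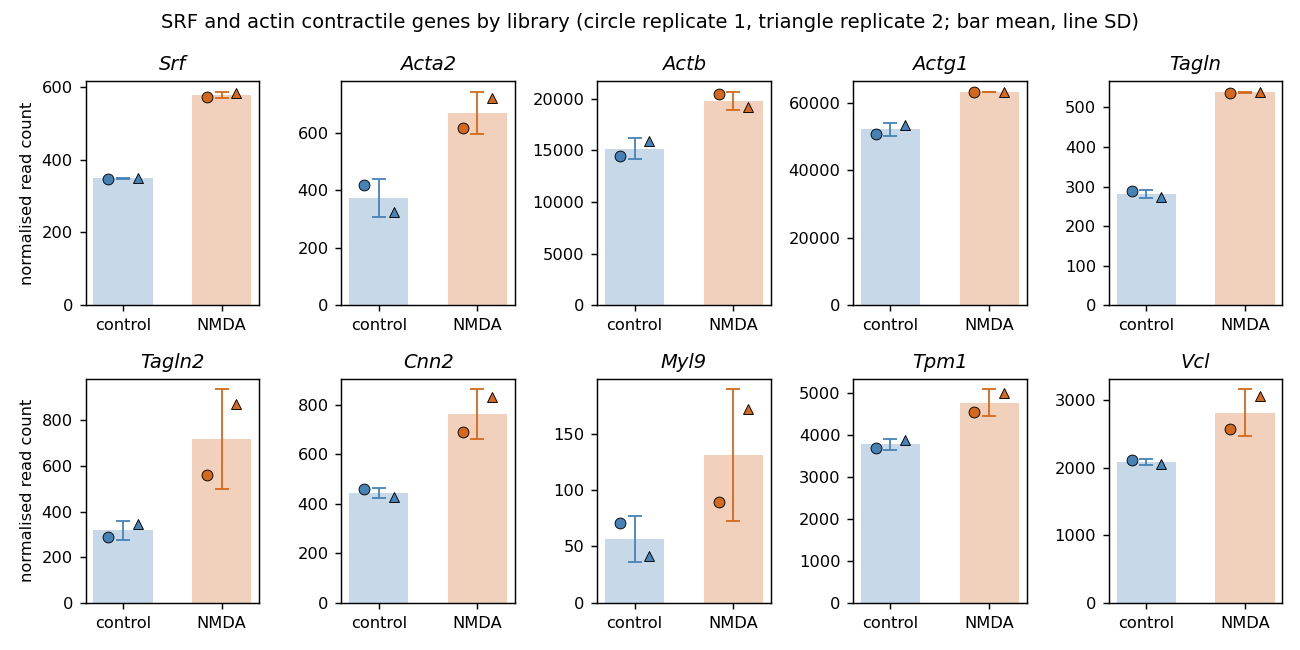
Normalised read counts of each of the 10 genes in the 4 libraries, with the bar at the group mean and the line at 1 SD (n = 2 each). In every panel both NMDA libraries lie above both controls; the NMDA libraries of Myl9 (89.6 and 172) and Tagln2 (562 and 871) are spread widest relative to their means.

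Of the 3 actin genes, those for smooth muscle alpha actin and beta actin rose and that for gamma actin did not pass. Acta2, which encodes smooth muscle alpha actin, had 418 and 326 normalised read counts in the controls and 616 and 721 after NMDA. Both NMDA libraries were well above the higher control, with a log2 change of 0.85 ± 0.14 (SE, by limma; adjusted p = 0.00248). Actb, the cytoplasmic beta actin gene often used as a reference transcript, stood at 14411 and 15857 in the controls and at 20411 and 19176 after NMDA. Its log2 change was 0.39 ± 0.10 (SE, by limma; adjusted p = 0.0172), with a call that was lost when control replicate 1 (0.32, adjusted p = 0.265) or replicate 2 (0.46, adjusted p = 0.115) was left out (range over all alternatives 0.000362 to 0.265). Actg1, the cytoplasmic gamma actin gene, had 50830 and 53607 in the controls and 63170 and 63313 after NMDA. The groups did not overlap, but the log2 change of 0.28 had an interval from -0.01 to 0.57 (95%; limma adjusted p = 0.113). Actg1 passed the threshold by DESeq2 on the recovered reads (adjusted p = 0.0067) and without NMDA replicate 1 (limma adjusted p = 0.0406; range over all alternatives 0.0067 to 0.568). Within a library, the ratio of Acta2 to Actb counts was 0.0290 and 0.0205 in the controls and 0.0302 and 0.0376 after NMDA. The ratio compares libraries and not the levels of the genes; its groups did not overlap, although NMDA replicate 1 lay close to control replicate 1, and the difference between the changes of Acta2 and Actb was not tested. Actin genes are alike in parts of their coding sequence, and how reads shared between them were counted is not stated in the labels or file headers. The split among the 3 is therefore uncertain, to an extent that was not tested.

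Tagln, Tagln2 and Cnn2 encode actin-binding proteins with a calponin-type domain, and all 3 rose. Tagln, transgelin, an early marker of smooth muscle, stood at 288 and 273 normalised read counts in the controls and at 536 and 539 after NMDA. The NMDA libraries were nearly equal, and the change of 0.94 ± 0.10 on the log2 scale had the smallest adjusted p of the 10 genes (SE, by limma; adjusted p = 0.000784). Tagln2, a transgelin found in many cell types, had 289 and 347 in the controls against 562 and 871. Replicate 2 of NMDA was far above replicate 1, and the log2 change of 1.14 ± 0.19 (SE, by limma; adjusted p = 0.00267) ranged from 0.82 to 1.46 when 1 library was left out. Cnn2, the calponin of non-muscle and smooth muscle cells, had 459 and 429 in the controls and 690 and 833 after NMDA. The groups were separated by a wide gap, with a log2 change of 0.77 ± 0.12 (SE, by limma; adjusted p = 0.00172). None of these 3 calls was lost without any 1 library (largest limma adjusted p 0.0197 for Tagln, 0.0409 for Tagln2 and 0.0275 for Cnn2). In the GRCm38.p6 annotation the Tagln locus overlaps that of Pcsk7, a proprotein convertase gene, and whether reads were counted by strand is not stated. Pcsk7 fell in the same libraries by 0.50 ± 0.11 on the log2 scale (SE, by limma; adjusted p = 0.00752), a call lost without control replicate 1 (adjusted p = 0.101; range over all alternatives 2.5e-05 to 0.101).

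Myl9, Tpm1 and Vcl encode parts of the contractile and adhesion machinery, and the call of each was lost when some single libraries were left out. Myl9, a regulatory light chain of smooth muscle and non-muscle myosin, had 70.9 and 41.9 normalised read counts in the controls and 89.6 and 172 after NMDA. The lower NMDA library was close to the higher control, and the reads behind these values numbered 79, 35, 102 and 164. Its log2 change of 1.17 ± 0.34 (SE, by limma; adjusted p = 0.0244) fell short of the threshold without control replicate 2 (0.80, adjusted p = 0.171), without NMDA replicate 2 (0.70, adjusted p = 0.142) and with quantile normalisation (1.00, adjusted p = 0.0533; range over all alternatives 1.91e-08 to 0.171). Tpm1, a tropomyosin that lies along the actin filament, had 3690 and 3874 in the controls and 4547 and 4996 after NMDA. The step between groups was small but larger than the gap within either group, at 0.33 ± 0.09 on the log2 scale (SE, by limma; adjusted p = 0.0154). Vcl, vinculin, which links actin filaments to integrin adhesions and cadherin junctions, had 2121 and 2054 in the controls and 2574 and 3059 after NMDA. Replicate 2 of NMDA was again the higher one, and the log2 change was 0.43 ± 0.10 (SE, by limma; adjusted p = 0.00955). Both genes lost their calls on leaving out control replicate 1 (Tpm1 0.30, adjusted p = 0.181; Vcl 0.45, adjusted p = 0.0836) or control replicate 2 (Tpm1 0.37, adjusted p = 0.0993; Vcl 0.40, adjusted p = 0.0935). Over all alternatives the adjusted p ranged from 0.000332 to 0.181 for Tpm1 and from 1.56e-06 to 0.0935 for Vcl. The end of the Vcl locus overlaps Ap3m1, an adaptor complex gene, whose log2 change was 0.38 ± 0.10 (SE, by limma; adjusted p = 0.0136, with a call lost without control replicate 1 or control replicate 2; range over all alternatives 0.000106 to 0.157).

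**Figure D3:**
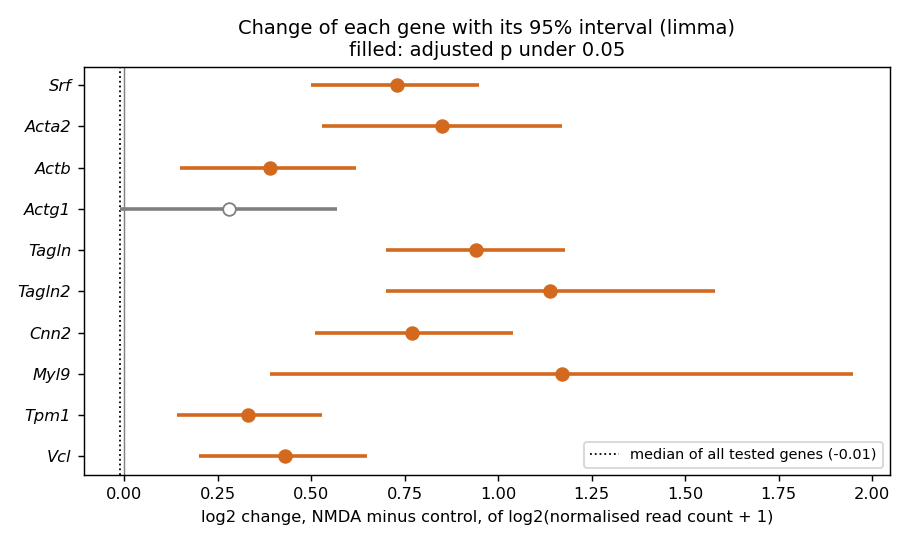
Log2 change of each gene after NMDA with its 95% interval from limma; filled points have an adjusted p under 0.05 and the dotted line is the median of all genes tested (-0.01). The interval of Actg1 alone among the 10 reaches below 0, and that of Myl9, from 0.39 to 1.95, is the widest.

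Among the 10, the replicates did not move together in the same way in both groups. NMDA replicate 2 was above NMDA replicate 1 in 9 of the 10 genes, all but Actb, whereas control replicate 2 was above control replicate 1 in 5. How often each order occurs over all genes tested was not counted, so neither count can be read as particular to the 10. Genes with and without an exact CArG match in the window overlapped in the size of their change. Log2 changes in the 5 genes with a match ran from 0.28 in Actg1 to 1.17 in Myl9. In the 3 with a window but no exact match they were 0.85 in Acta2, 1.14 in Tagln2 and 0.33 in Tpm1. Those 3 may still hold a box with a mismatch or outside the window, so this does not compare genes with and without serum response factor sites. The share of all tested genes with a smaller log2 change was 98.6% for Myl9, 98.2% for Tagln2, 94.6% for Tagln, 92.5% for Acta2, 90.4% for Cnn2 and 89.2% for Srf, and between 70.7% and 78.5% for Actg1, Tpm1, Actb and Vcl. The number of rises among the 10 was 6 with control replicate 1 left out, 5 with control replicate 2 left out, 10 with NMDA replicate 1 left out and 8 with NMDA replicate 2 left out. In the same fits 7.62%, 10.1%, 21.8% and 14.8% of all genes rose and 6.54%, 9.62%, 24% and 17.1% fell. All genes gave 20.9% rises and 20.7% falls by edgeR, 17.6% and 18.1% by DESeq2, 18.5% and 20.3% after quantile normalisation and 26.5% and 27.2% with a replicate block, under which the 10 genes gave 9, 10, 8 and 9 rises.

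The cofactors of serum response factor changed in both directions. Mkl1, which encodes MRTF-A, had 1165 and 1126 normalised read counts in the controls and 715 and 732 after NMDA, and so moved opposite to Srf. Its log2 change was -0.66 ± 0.08 (SE, by limma; adjusted p = 0.00108), and no alternative lost the call. Mkl2, which encodes MRTF-B, had 429 and 401 in the controls and 313 and 288 after NMDA, a log2 change of -0.47 ± 0.11 (SE, by limma; adjusted p = 0.0115). Leaving out a control library ended the call, with control replicate 1 giving 0.123 and replicate 2 giving 0.0633 (adjusted p; range over all alternatives 0.000181 to 0.123). Of the ternary complex factor genes, Elk3 rose by 0.85 ± 0.15 on the log2 scale (SE, by limma; adjusted p = 0.00306), from 107 and 99.4 to 184 and 188. Elk4, Elk1 and Myocd complete the list and were named after their values were seen. Elk4 rose by 0.47 ± 0.13 (SE, by limma; adjusted p = 0.0181), a call lost by DESeq2 (adjusted p = 0.0526) and without control replicate 1 (0.116), control replicate 2 (0.103) or NMDA replicate 2 (0.0805; range over all alternatives 0.000637 to 0.116). Elk1 had 488 and 411 in the controls and 525 and 459 after NMDA, so its groups overlapped (log2 change 0.13 ± 0.12, limma adjusted p = 0.419). Myocd, the myocardin gene, was under the filter, at 3.59 and 1.20 in the controls and listed at 0 in both NMDA libraries. Of the 5 tested cofactors, 2 rose and 2 fell, with a median log2 change of 0.13, beside 20.5% and 21.5% of all tested genes. None of the 5 cofactor genes with a promoter window had a CArG box.

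**Figure D4:**
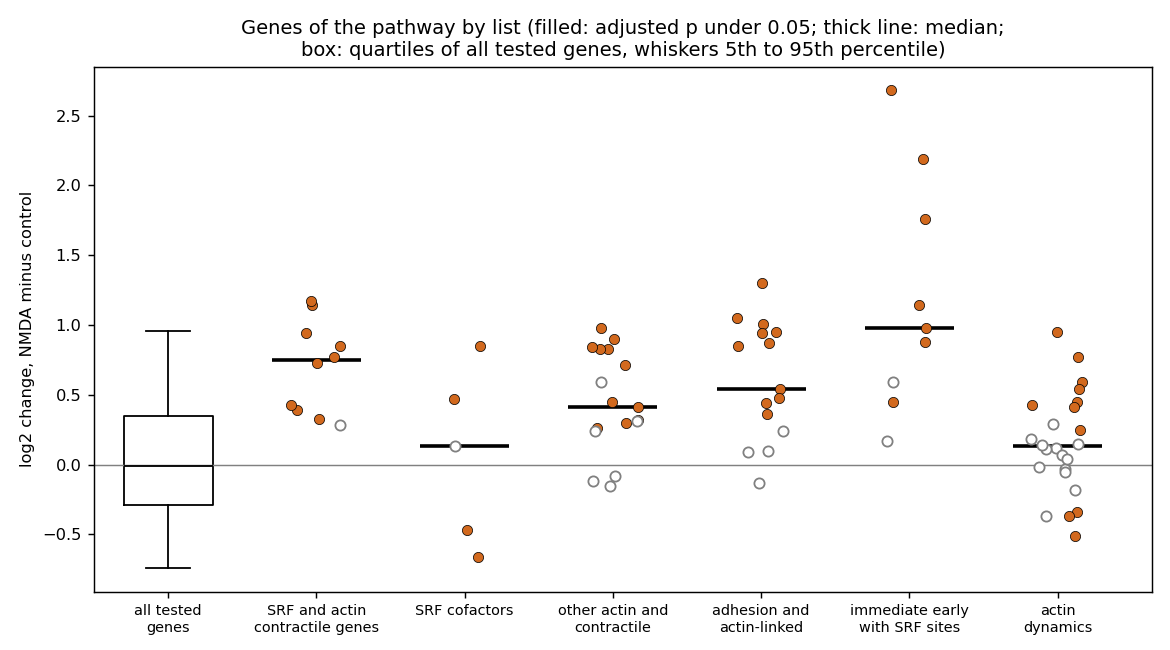
Log2 change after NMDA of the tested genes of each list, with filled points past an adjusted p of 0.05, a thick line at the list's median and, at the left, the distribution over all 13888 genes tested. The cofactors lie on both sides of 0, and the actin dynamics genes are centred near the median of all genes (0.13 beside -0.01).

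Other genes of the actin and contractile apparatus gave 11 rises and 0 falls among 17 tested of 22 listed. Over all genes tested, 20.5% rose and 21.5% fell. The list had a median log2 change of 0.41. Its falls also numbered 0 at an unadjusted p under 0.05 by limma, and by edgeR and DESeq2. Cald1, caldesmon, went from 1599 and 1461 normalised read counts to 2734 and 2983, a log2 change of 0.90 ± 0.09 (SE, by limma; adjusted p = 0.000698). Tpm4, a cytoplasmic tropomyosin, rose by 0.98 ± 0.11 and Myh9, a non-muscle myosin heavy chain, by 0.71 ± 0.11 (SE, by limma; adjusted p = 0.000825 and 0.00183). The rises in this list numbered 3 without control replicate 1 and 6 without control replicate 2. Rises over all genes tested were also fewer in these fits. In the promoter windows, 3 of 20 genes of this list (23 windows in all) had a CArG box, namely Acta1, Actc1 and Myl6.

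Adhesion and actin-linked genes gave 11 rises and 0 falls among 15, where 20.5% of all genes tested rose and 21.5% fell. The list had a median log2 change of 0.54. Its falls also numbered 0 at an unadjusted p under 0.05 by limma, and by edgeR and DESeq2. Itgb1, the beta 1 integrin subunit, went from 3756 and 3593 to 6766 and 8080 normalised read counts, a log2 change of 1.01 ± 0.10 (SE, by limma; adjusted p = 0.000703). Itga5, its partner in the fibronectin receptor, rose by 1.05 ± 0.12 and Tln1, talin, which ties integrins to actin, by 0.95 ± 0.11 (SE, by limma; adjusted p = 0.000802 and 0.000825). There were 6 rises without control replicate 1, and without NMDA replicate 1 there was 1 fall, that of Fhl1 (log2 change -0.22, limma adjusted p = 0.0459; range over all alternatives 0.0459 to 0.686), named after its value was seen. Without control replicate 1, rises were also fewer over all genes tested. A CArG box was found for 4 of 12 genes with a window (17 windows in all), Fhl1, Fhl2, Filip1l and Lima1.

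Immediate early genes with known serum response elements gave 7 rises and 0 falls among 9 tested of 10. The shares over all genes tested were 20.5% and 21.5%. The list had a median log2 change of 0.98. Its falls also numbered 0 at an unadjusted p under 0.05 by limma, and by edgeR and DESeq2. Fos, an AP-1 subunit, went from 649 and 1001 normalised read counts in the controls to 3106 and 4378, a log2 change of 2.19 ± 0.21 (SE, by limma; adjusted p = 0.000698), beside 0.73 for Srf. Fosb, another AP-1 subunit, had 53.9 and 74.3 in the controls and 343 and 490 after NMDA, and Nr4a1, a nuclear receptor, 239 and 293 against 708 and 1137. Fewer of these genes were called without control replicate 1, and rises over all genes tested were also fewer in that fit. With 1 library left out, the list's median log2 change ran from 0.71 (NMDA replicate 2) to 1.42 (NMDA replicate 1). Of 6 genes with a window (10 windows in all), 1, Egr2, held a CArG box.

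Genes of actin turnover and its upstream regulators gave 8 rises and 3 falls among 24, with a median log2 change of 0.13, where 20.5% of all genes tested rose and 21.5% fell. Gsn, gelsolin, which severs and caps filaments, went from 752 and 739 normalised read counts to 1377 and 1511, a log2 change of 0.95 ± 0.09 (SE, by limma; adjusted p = 0.000698). Pfn1, profilin 1, which binds actin monomers, rose by 0.59 ± 0.09 (SE, by limma; adjusted p = 0.00154). Wasf1, a neuronal WAVE subunit that activates the Arp2/3 complex, fell by 0.51 ± 0.08 (SE, by limma; adjusted p = 0.00197). The other falls, named after their values were seen, were Rhob by 0.34 and Limk1, a cofilin kinase, by 0.37 on the log2 scale (limma adjusted p = 0.0108 and 0.0304). Rhob lost its call with quantile normalisation (adjusted p = 0.0599), without control replicate 1 (0.0831) or control replicate 2 (0.128; range over all alternatives 0.000143 to 0.128). Limk1 lost its call with quantile normalisation (0.101) and without control replicate 1 (0.168), control replicate 2 (0.154) or NMDA replicate 2 (0.094; range over all alternatives 4.68e-05 to 0.168). Without control replicate 1 the list gave 2 rises and 1 fall, and without control replicate 2 it gave 4 rises and 1 fall. Calls over all genes tested were also fewer in these fits. None of the 21 genes with a window held a CArG box.

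Of 4 lists of non-neuronal markers, fibroblast and mural cell markers and progenitor and astrocyte markers mostly rose with these genes. Over all genes tested, 20.5% rose and 21.5% fell, and calls were fewer with either control replicate left out. Of the 12 fibroblast and mural cell markers, 10 were tested and 9 rose, with a median log2 change of 1.11. Their summed normalised read count was 121464 and 111871 in the controls and 223030 and 302635 after NMDA, and 2 mural markers, Cspg4 and Rgs5, had means under 10. Col1a1, a collagen chain of fibroblasts, rose by 1.17 ± 0.15 on the log2 scale (SE, by limma; adjusted p = 0.00112). Acta2, Tagln and Myl9 are themselves expressed by mural cells and myofibroblasts. Progenitor and astrocyte markers gave 9 rises among 10 (median 0.83), with sums of 11803 and 14444 in the controls and 19992 and 29157 after NMDA; without control replicate 1 there were 3 rises. Endothelial and microglial markers, 5 tested of 9, gave 1 rise, near the share of all genes, with a median log2 change of 0.80. Their sums were 333 and 314 in the controls and 469 and 588 after NMDA. The rise was that of Kdr, a VEGF receptor gene (log2 change 0.80). Cdh5 (0.92), Emcn (1.05) and Tek (0.34) had positive changes that were not called, although Cdh5 was called with the replicate block (limma adjusted p = 0.000767). Pecam1, an endothelial adhesion gene, had the only negative change of the 5, -0.44, and was not called. Emcn, Tek and Pecam1 were named after their values were seen. Striated muscle markers were low, with summed counts over 9 genes of 60 and 75 in the controls and 95 and 95 after NMDA. Cardiac and slow myosin heavy chain genes, Myh7 (28.7 to 50.9) and Myh6 (13.5 to 23.7), were the 2 with a mean of at least 10. Their log2 changes were 0.58 and 0.43. Myf5 was at 0 in every library. There were 0 calls among the 2 tested by limma, edgeR or DESeq2 (at an unadjusted p under 0.05, 0 by limma and DESeq2 and 1 by edgeR). The part of other cell types in the rises of the 10 genes was not tested.

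Neuronal markers checked the label and were abundant in all 4 libraries, though not alone. The 13 in the table had a summed count of 186459 and 198904 in the controls and 176694 and 157751 after NMDA. By read count, not adjusted for transcript length, this was above the sum of the fibroblast and mural markers in both controls and below it in both NMDA libraries. Col3a1, a fibrillar collagen chain, had 49931 and 44801 normalised read counts in the controls and 94091 and 127266 after NMDA, above every neuronal marker in each library on that scale. Over all genes tested, 20.5% rose and 21.5% fell, and calls were fewer with either control replicate left out. Of the 13, 6 fell and 1, Elavl4, rose (median log2 change -0.33); the falls numbered 3 without control replicate 1 and 1 without control replicate 2. Elavl4, named after its value was seen, had a log2 change of 0.26 that was not called without control replicate 1 (limma adjusted p = 0.178), control replicate 2 (0.225) or NMDA replicate 1 (0.0875), nor by DESeq2 (0.0658; range over all alternatives 0.0061 to 0.225). Mapt, which encodes tau, stood at 42095 and 44049 in the controls and 38638 and 34174 after NMDA. Its log2 change of -0.24 did not pass (limma adjusted p = 0.143), but did by DESeq2 (adjusted p = 0.0484) and without NMDA replicate 1 (0.0173; range over all alternatives 0.0173 to 0.548).

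**Figure D5:**
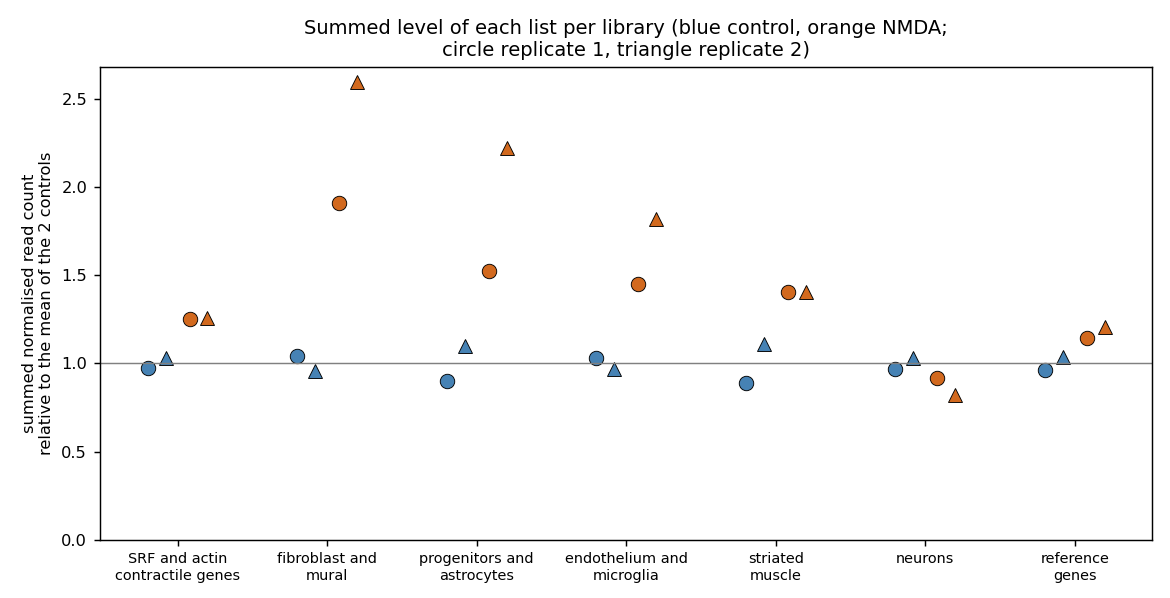
Summed normalised read count of each list in every library, relative to the mean of its 2 controls. The 10 genes, in which Actg1 and Actb make up most of the sum, reach 1.25 and 1.26 in the NMDA libraries, fibroblast and mural markers 1.91 and 2.59, and neuronal markers 0.917 and 0.819.

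Transcripts commonly used as references give a scale for the change of Actb. Of 11 such genes, 8 did not pass and 3 rose, where 20.5% of all genes tested rose. The 3 were Rplp0, and B2m and Gusb, which were named after their values were seen. The median log2 change was 0.13. Leaving out control replicate 1 ended the calls of B2m (limma adjusted p = 0.256) and Rplp0 (0.164), leaving out control replicate 2 those of Gusb (0.0766) and Rplp0 (0.0692), and B2m was not called without NMDA replicate 2 (0.159) or by DESeq2 (0.159). Rplp0, a ribosomal stalk protein gene and 1 of the 2 most abundant references by read count, had a log2 change of 0.54 ± 0.12 (SE, by limma; adjusted p = 0.00834). Ppia, cyclophilin A, the other, had a log2 change of 0.29 ± 0.11 that did not pass (SE, by limma; adjusted p = 0.0575), but did by edgeR (0.0435), DESeq2 (0.00857), with the replicate block (0.0271) and without NMDA replicate 1 (0.029; range over all alternatives 0.00857 to 0.484). Over all alternatives the adjusted p reached from 3.44e-18 to 0.256 for B2m, 1.15e-05 to 0.0766 for Gusb and 8.13e-06 to 0.164 for Rplp0. Gapdh, named after its values were seen, had 8957 and 9017 normalised read counts in the controls and 10138 and 9493 after NMDA, a log2 change of 0.13 ± 0.09 (SE, by limma; adjusted p = 0.281). The change of Actb, 0.39, lay above those of Gapdh and Ppia and below those of Rplp0, Gusb (0.62) and B2m (0.76). Differences between these changes were not tested.

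The genes whose profile over the 4 libraries was nearest to that of Srf were sought among 11977 tested genes with a mean of at least 50, as the Euclidean distance between log2 values set against the control mean. They were Slc29a1, a nucleoside transporter (distance 0.034), 2310044H10Rik (0.041), Cgnl1, a junction protein (0.050), Gpr56, an adhesion receptor (0.051), and Mex3b, an RNA-binding protein (0.053). Slc29a1 had 169 and 165 normalised read counts in the controls and 277 and 277 after NMDA. With 4 libraries in 2 groups, the measure finds genes with the same step and small spread. Cnn2 was the nearest of the other 9 genes, at a distance of 0.197 and rank 257, and Myl9 the farthest, at 1.04 and rank 5584.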

How the data were processed

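The submitters' processing notes name mm9 as the genome build, and TopHat, Bowtie, HTSeq and DESeq as tools. Not given in the sources used here were versions, roles and settings of these tools, the annotation and the strandedness. The authors deposited the RNA values as normalised read counts, a signal of reads per gene divided by 1 factor per library. Dividing each library by its own step gave whole reads (tolerance 0.0051) for 99.99% to 100% of genes, 15008112 to 20149813 per library. Genes with a mean of at least 10 entered a trended limma fit (version 3.58.1, in R 4.3.3) of log2(value + 1), group as the only term, 2-sided, Benjamini-Hochberg over 13888 genes, threshold 0.05. On the recovered reads, edgeR 4.0.16 (quasi-likelihood) called 2905 rises and 2877 falls and DESeq2 1.42.0 called 2260 and 2324, beside 2845 and 2979 by limma. Other alternatives were pseudocounts of 0.5 and 5, no filter, a mean of at least 50, quantile and TMM scaling, a replicate block and each library left out. The script was tested on simulated data. Precision rests on 2 libraries per group. The genes and lists were chosen with earlier results of these data known. Named genes were the 10, in each pathway list up to 3 called genes by smallest p (or, with none, the highest mean), the 2 highest per marker or reference list and the 5 nearest to Srf; not all are printed. Map2 and Myl12a were not analysed here, and 1 gene of the reference list is not reported here. The chromatin tables were not used here, since their regions carry no position.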

Additional observations from a re-analysis of the deposited data

How the results depend on the processing

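All 10 genes kept a positive change in each of the 13 alternatives run. Of the 130 values, 119 stayed on the same side of the threshold, 9 lost the call (Actb, Vcl, Tpm1 and Myl9) and 2 gained it (Actg1); the cause was not tested, except that a library left out leaves 3. With 1 library left in an arm, that library is assumed to vary like the rest. Leaving out 1 library gave 1060 to 3031 rises and 910 to 3335 falls over all genes. It gave 5 to 10 rises and a median log2 change of 0.67 to 0.83 for the 10 genes. The same step gave 1 to 2 rises and 1 to 2 falls for the cofactors, 3 to 12 rises for other actin and contractile genes, 6 to 12 rises and 0 to 1 falls for adhesion genes, 3 to 8 rises for immediate early genes, and 2 to 9 rises and 1 to 4 falls for actin dynamics genes. DESeq2 called 1 rise among the cofactors, and quantile normalisation 1 fall among actin dynamics genes. Stmn2, a neuronal marker at 0.00052, had -0.02 when control replicate 1 was left out and -0.08 when NMDA replicate 1 was, within a range of -0.08 to 0.08 over the libraries left out. No scaling moved the median of all genes by more than 0.02. Groups share replicate numbers but nothing in the labels pairs them; deviations of same-numbered libraries correlated at 0.343 over genes. With the replicate block 9 of the 10 genes rose, and over all genes 3685 rose and 3782 fell. No striated muscle marker had a mean of at least 50, so that setting gave no value for them. For Myl9, 35 to 164 reads per library limit the precision.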
